A study of Mus musculus with 4 samples.

Results

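MHC class I antigen presentation is described here through 10 genes that were taken by name from the deposited tables, out of 20194 genes listed in either table and 16181 listed in both. They are the heavy chains H2-D1, H2-K1 and H2-T23, the light chain B2m, the peptide transport and loading genes Tap1, Tap2 and Tapbp, the immunoproteasome subunits Psmb8 and Psmb9, and the transactivator Nlrc5. All 10 were listed at both stages. RNA of mouse brain endothelial cells was sequenced at embryonic day 15 (E15) and embryonic day 18 (E18), from wild-type C57BL/6 embryos and from UCP2f/f;Tie2-cre embryos of the same strain, called knockout below. The knockout joins a floxed allele of Ucp2, the gene of a mitochondrial inner membrane carrier, to Cre recombinase driven by Tie2, a promoter that works in endothelium and in most cells of the blood. Each of the 4 groups of genotype and stage held 1 library here, although the design text of the series speaks of triplicates. The sources used here give neither how the cells were isolated nor whether a library came from 1 embryo or several.

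MHC class I molecules carry peptides from inside the cell to its surface, where CD8 T cells and natural killer cells read them. Proteasomes cut the peptides, the TAP transporter moves them into the endoplasmic reticulum, and tapasin and other chaperones load them on a heavy chain paired with beta-2 microglobulin. Interferons raise transcription of most genes of the pathway, partly through NLRC5, and exchange the catalytic subunits of the proteasome for those of the immunoproteasome. Endothelial cells are among the cells of the brain known for class I at their surface, whereas neurons carry little.

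The libraries held 15542930 (wild type, E15), 16328300 (knockout, E15), 19075407 (wild type, E18) and 21992660 reads (knockout, E18), and values per library follow this order throughout. Levels are read counts scaled to the library total, as CPM. Ucp2 itself stood at 276, 163, 351 and 150 CPM, so it was lower in the knockout library at each stage and was not lost. The 12 endothelial markers summed to between 17856 and 21009 CPM with none at 0, led by Cldn5, a tight junction protein (6151, 7583, 7235 and 8064 CPM). Microglia and macrophage markers were present too and summed to 684, 338, 90.9 and 166 CPM, with Tmem119 at 0 in the wild-type library at E18. Markers of other leukocytes summed to 323, 265, 180 and 258 CPM, with S100a8 at 0 in the wild-type library at E15 and Cpa3 at 0 in that at E18. Mural markers summed to 7321, 4887, 9322 and 11639 CPM. The Y-linked gene Ddx3y had 5826 reads in wild type against 0 in the knockout at E18, and Xist, which is transcribed from the inactive X chromosome, had 2549, 2109, 0 and 547 reads. At E18 genotype and these sex-linked transcripts therefore cannot be told apart. The libraries of E15 and E18 differ in Xist in both genotypes as well, at 164 and 0 CPM in wild type and 129 and 24.9 CPM in the knockout. In bulk RNA, fewer cells of a type and less RNA per cell cannot be told apart.

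Class I transcripts were present in all 4 libraries. Among the members, the chaperone gene Tapbp and the chains were far above the immunoproteasome subunits Psmb8 and Psmb9 and the transactivator. The 10 genes summed to 711, 891, 1165 and 1134 CPM, and to 436, 511, 694 and 684 CPM without B2m. Levels of different genes were compared as CPM per kilobase of annotated exon. B2m led with a mean of 458 CPM per kilobase over the libraries (range 320 to 547), above every other member in every library. H2-D1, a classical heavy chain (mean 74.2, range 62.9 to 81.8), and Tapbp, which encodes tapasin (mean 69.0, range 49.6 to 86.0), came next, and their ranges overlapped. H2-T23, which encodes the nonclassical heavy chain Qa-1 (mean 13.4), the classical chain H2-K1 (mean 12.1) and the transporter subunit Tap2 (mean 11.8) followed with overlapping ranges. Tap1, the other transporter subunit (mean 2.89), and Psmb9 (mean 1.07) overlapped below them. Nlrc5 (mean 0.0777) and Psmb8 (mean 0.0337) were near the limit of detection. The spread here is over 4 libraries of different groups and not over replicates.

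**Figure D1:**
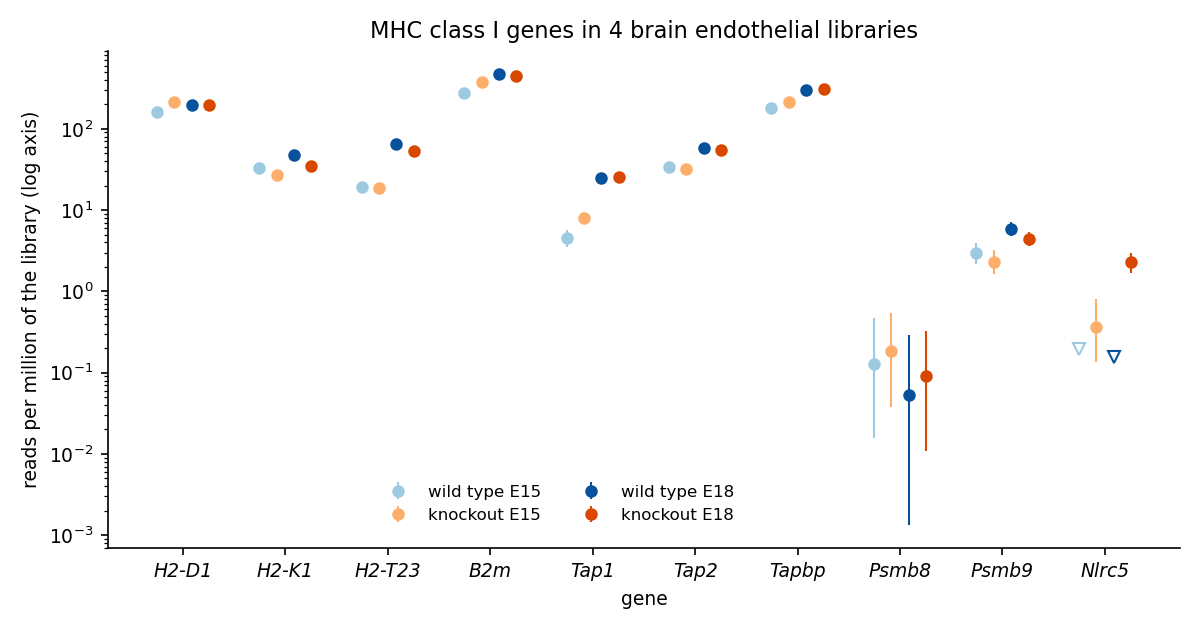
Level of each of the 10 genes in each of the 4 libraries, in CPM on a log axis, with exact 95% intervals of the count as vertical lines (counting error only). Open triangles mark a count of 0 and stand at the value of 3 reads in that library. H2-T23 and Tap1 are separated by stage, and Nlrc5 has reads in the knockout libraries alone.

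The heavy chains share coding sequence, which bears on their counts. Of all 50-base words in the annotated transcripts, 12.8% for H2-D1, 9.63% for H2-K1 and 13.6% for H2-T23 occur in other genes as well, mainly other class I genes, whereas B2m shares none. The sources used here do not give how such reads were assigned, and the levels of the 3 heavy chains are uncertain by an amount that was not tested. On chromosome 17 (GRCm38) Psmb9 (34181988 to 34187764, minus strand) and Tap1 (34187553 to 34197225, plus strand) start head to head and share 212 exon bases. Tapbp (33915899 to 33929288) shares 29% and Tap2 (34203527 to 34216321) 18.5% of its exon bases with other annotated genes. Psmb8 shares 14.7%, and the constitutive subunits Psmb5 and Psmb7, used in the subunit pairs below, share 12.1% and 11.8%. Whether counting used strand is not given either.

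The sequence before the annotated start is shown for the members whose values are described most closely below, because class I genes are known for a compact promoter that combines an interferon response element with boxes bound by the NLRC5 enhanceosome. RefSeq windows on GRCm38.p6 matched 8 of the 10 genes, all but Tap2 and Nlrc5. Each run holds the 250 bases before the start, from 5′ to 3′ on the gene's strand. The windows lie at chr2:122147437-122147686 (plus strand) for B2m, chr17:35262844-35263093 (plus) for H2-D1, chr17:34000334-34000583 (minus) for H2-K1, chr17:36032702-36032951 (minus) for H2-T23 and chr17:34187306-34187555 (plus) for Tap1. Capitals mark matches, on either strand, to 4 motifs, which are the interferon regulatory factor element AANNGAAA, the CCAAT box, the X2 box core TGACG and the NF-kappaB motif.
B2m: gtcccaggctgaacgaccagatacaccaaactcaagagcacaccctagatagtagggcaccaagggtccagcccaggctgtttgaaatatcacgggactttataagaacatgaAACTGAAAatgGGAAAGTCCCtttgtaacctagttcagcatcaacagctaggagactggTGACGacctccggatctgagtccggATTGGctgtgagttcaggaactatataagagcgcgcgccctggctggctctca
H2-D1: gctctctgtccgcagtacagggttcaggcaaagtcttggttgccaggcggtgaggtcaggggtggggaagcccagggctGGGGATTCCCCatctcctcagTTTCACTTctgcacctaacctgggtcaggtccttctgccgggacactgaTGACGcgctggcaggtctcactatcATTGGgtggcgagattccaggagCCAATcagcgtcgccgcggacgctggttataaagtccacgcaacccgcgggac
H2-K1: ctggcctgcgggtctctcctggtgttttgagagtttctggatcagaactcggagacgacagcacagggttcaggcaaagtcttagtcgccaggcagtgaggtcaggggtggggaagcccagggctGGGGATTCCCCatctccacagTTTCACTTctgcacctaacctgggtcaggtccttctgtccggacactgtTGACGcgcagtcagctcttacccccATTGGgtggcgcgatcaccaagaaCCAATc
H2-T23: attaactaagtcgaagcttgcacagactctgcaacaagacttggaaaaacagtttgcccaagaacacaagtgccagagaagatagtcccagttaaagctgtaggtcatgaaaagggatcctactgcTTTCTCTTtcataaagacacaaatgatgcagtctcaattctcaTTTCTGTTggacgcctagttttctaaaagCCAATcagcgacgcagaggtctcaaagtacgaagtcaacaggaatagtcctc
Tap1: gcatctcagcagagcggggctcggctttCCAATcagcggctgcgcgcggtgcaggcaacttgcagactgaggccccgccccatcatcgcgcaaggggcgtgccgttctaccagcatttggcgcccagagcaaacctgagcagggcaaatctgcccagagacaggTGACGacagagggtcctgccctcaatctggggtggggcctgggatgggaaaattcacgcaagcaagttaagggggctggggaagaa
The windows of H2-K1 and H2-D1 align over 192 positions, of which 172 (89.6%) are identical, and the marked elements stand in the same order in both.

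The interferon regulatory factor element was found in 4 of the 8 windows, those of B2m, H2-D1, H2-K1 and H2-T23, against 21.3% of 32841 windows of the same length. It lies at -137 to -130 in B2m and at -150 to -143 in H2-D1, counted from the start, and H2-T23 has it at -124 to -117 and again at -81 to -74. The NF-kappaB motif was found in B2m, H2-D1 and H2-K1 (3 of 8, against 7.25% of all windows), in the last pair as matches that overlap each other. The X2 core was found in 5 of 8, namely B2m, H2-D1, H2-K1, Psmb9 and Tap1 (17.8% of all windows), and the CCAAT box in 7 of 8, all but Psmb8 (33.9%). The Tap1 and Psmb9 windows share 225 bases on opposite strands. Their CCAAT box and X2 core are the same letters, and each is counted once for either gene. A match is a description of these letters and not a bound site.

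At E18 most of the 10 members with enough reads stood higher than at E15 in both genotypes, most of all Tap1 and H2-T23, while H2-D1 was slightly lower in the knockout. A gene entered a comparison of 2 libraries with at least 1 CPM in 1 of them and at least 50 reads over both, and was called at a 2-fold ratio of CPM with a pseudocount of 1 CPM, which understates differences of weak genes. In wild type all 8 members that entered were above 0 on the log2 scale (39.1% of all genes entered), with a median of 0.77 against -0.11 over all genes. Called 2-fold higher were 2 of the 8, H2-T23 and Tap1, where the background is 3.08% of all genes entered. In the knockout 8 of 9 were above 0 (42.1% of all genes), with a median of 0.71 against -0.10, and 3 were called higher, H2-T23, Tap1 and Nlrc5, against a background of 4.34%. Nlrc5 entered only through the knockout library at E18. Scaling by TMM, which takes out differences in composition, moved the median of all genes to 0.00 in wild type and 0.01 in the knockout, so all ratios between stages are higher by about that shift on that scale. The comparisons between stages and between genotypes share libraries and are not independent of each other.

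The heavy chains differed in how far the stages stood apart. H2-T23 had 296 and 301 reads at E15 and 1225 and 1175 at E18, that is 19.0, 18.4, 64.2 and 53.4 CPM. Both E18 libraries lay above both E15 libraries, and the E18 to E15 ratio was 3.37 in wild type (95% interval of the counts 2.97 to 3.84) and 2.90 in the knockout (2.55 to 3.30). H2-K1 stood at 33.3, 27.4, 46.9 and 34.4 CPM, with ratios of 1.41 (1.26 to 1.57) and 1.26 (1.12 to 1.42). Its lowest E18 library was only slightly above its highest E15 library. H2-D1, the most abundant heavy chain, stood at 162, 211, 196 and 196 CPM, and its stages overlapped. Its ratio was 1.21 (1.15 to 1.27) in wild type and 0.931 (0.890 to 0.974) in the knockout, where the log2 value of -0.10 becomes 0.01 under TMM scaling. Of the reads of the 3 heavy chains, H2-T23 took 8.87% and 7.18% at E15 and 20.9% and 18.8% at E18, while H2-D1 took 75.6%, 82.2%, 63.8% and 69.1%.

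The light chain and the transport and loading genes were also higher at E18. B2m had 4281, 6201, 8981 and 9911 reads (275, 380, 471 and 451 CPM), with an E18 to E15 ratio of 1.71 (1.65 to 1.77) in wild type and 1.19 (1.15 to 1.23) in the knockout. Both E18 libraries lay above both at E15, and the 2 intervals did not overlap. Per kilobase, B2m stood at 3.96, 4.53, 4.79 and 4.93 times the sum of the 3 heavy chains. Tap1 had 70, 131, 476 and 567 reads (4.50, 8.02, 24.95 and 25.8 CPM), a ratio of 5.54 (4.30 to 7.23) in wild type and 3.21 (2.65 to 3.92) in the knockout. This was the largest ratio between stages among the 8 members that entered in wild type. Tap2, its partner in the transporter, stood at 33.8, 31.8, 58.6 and 54.6 CPM, with ratios of 1.73 (1.56 to 1.92) and 1.72 (1.55 to 1.91). Tapbp stood at 180, 212, 297 and 312 CPM, with ratios of 1.65 (1.58 to 1.73) and 1.47 (1.41 to 1.53). For both genes the stages were apart in every library.

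**Figure D2:**
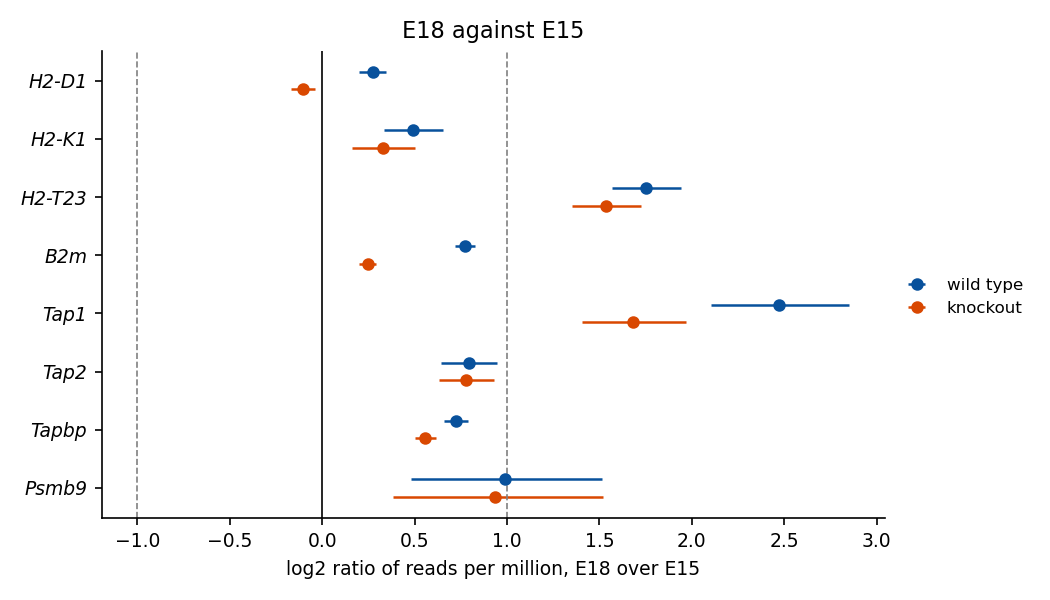
Log2 ratio of CPM, E18 over E15, for the 8 members with enough reads in both genotypes; points are ratios without a pseudocount, lines are exact 95% intervals (counting error only) and dashed lines mark a 2-fold ratio. Tap1 and H2-T23 lie beyond the 2-fold line in both genotypes, and H2-D1 lies below 0 in the knockout.

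Of the immunoproteasome subunits, Psmb9, which replaces Psmb6, had 46, 38, 112 and 98 reads (2.96, 2.33, 5.87 and 4.46 CPM), with E18 to E15 ratios of 1.98 (1.40 to 2.86) and 1.91 (1.30 to 2.86). The stages did not overlap, though the counts were low. Psmb8, which replaces Psmb5, had 2, 3, 1 and 2 reads and entered no comparison, so a difference was not detectable at this depth. Nlrc5, the transactivator of class I genes (chromosome 8, 94434356 to 94527272), had 0 reads in both wild-type libraries and 6 and 50 reads in the knockout libraries. Its knockout ratio of E18 to E15 was 6.19 (2.65 to 17.7), on few reads at E15.

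The additive test asked which genes differed with stage across both genotypes. It used edgeR's quasi-likelihood test with a term for stage and a term for genotype, so that the 2 genotypes serve as the replicates of the stage effect, with 1 residual degree of freedom. Of the 8 members tested, 2 rose at an adjusted p under 0.05 and none fell, where 0.909% of all 13416 genes tested rose. H2-T23 rose by 1.76 on the log2 scale (edgeR adjusted p = 0.0182) and Tap1 by 2.18 (edgeR adjusted p = 0.0333), each higher at E18 in both genotypes. Tapbp (log2 0.76, edgeR adjusted p = 0.0509), Tap2 (0.90, 0.0719) and B2m (0.63, 0.109) missed the threshold. H2-K1 (0.53, adjusted p 0.256), Psmb9 (1.08, 0.459) and H2-D1 (0.20, 0.571) were farther from it. DESeq2 called 5 members on the same genes, H2-T23, Tap1, Tapbp, Tap2 and B2m, and edgeR without a filter on low counts called H2-T23 alone (Tap1 adjusted p = 0.0573). The p-values rest on single libraries of the 2 genotypes, and the spread between embryos does not enter them.

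Other genes of the pathway, taken from lists chosen with earlier results of these data known, are given here by their counts in the additive test of stage, beside the genes that interferons induce. In that test 0 of 9 other class I and class I-like heavy chains, 0 of 16 genes of peptide loading and trimming, 0 of 5 genes of the immunoproteasome and its PA28 activator outside the members, 0 of 16 constitutive proteasome genes, 0 of 12 class I transcription factors and 0 of 4 MHC class II genes passed (4, 4, 0, 0, 2 and 0 at an unadjusted p under 0.05, where 16.7% of all genes tested were). Of all genes tested 0.909% rose and 0.432% fell, so a count of 0 in lists this short does not set them apart from all genes. The median E18 to E15 log2 ratio in wild type and in the knockout was 0.26 and -0.02 for the other heavy chains, -0.0049 and -0.0052 for loading and trimming, -0.02 and -0.22 for the other immunoproteasome and PA28 genes, and -0.11 and -0.18 for the constitutive proteasome. Erap1, which trims peptides in the endoplasmic reticulum, was 2-fold higher at E18 in wild type (log2 1.11) and stood at 0.66 in the knockout, with an edgeR adjusted p of 0.0620. Of 27 interferon-stimulated genes 12 rose and 0 fell, against 0.909% of all genes that rose. Among the 12 were Rtp4 (log2 2.11, edgeR adjusted p = 0.0253), Ifit1 (2.94, 0.0346) and the restriction factor Bst2 (0.98, 0.0346). Of 16 interferon receptor and signalling genes 3 rose, against the same 0.909%. They were Irf9, which binds DNA for the type I interferon response (0.95, 0.0337), and the feedback inhibitors Usp18 (2.23, 0.0206) and Socs3 (1.17, 0.0346).

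The summed level of microglia and macrophage markers was lower at E18. In the additive test 4 of 14 fell, Csf1r, Cx3cr1, C1qa and C1qc, and 0 rose, where 0.432% of all genes tested fell. The markers' median E18 to E15 log2 ratio was -3.29 in wild type and -1.66 in the knockout. The list was not uniform. In the knockout 2 of 13 markers were 2-fold higher at E18, Lyz2 and Mrc1, against 4.34% of all genes. Lyz2 stood at 35.1, 15.3, 45.1 and 84.7 CPM and was a large part of the marker sums at E18. Mrc1 stood at 11.3, 3.18, 6.66 and 8.68 CPM. Csf1r, the receptor that microglia depend on, stood at 158, 64.2, 12.2 and 9.64 CPM. The summed level of the class I members was higher in the E18 libraries, in which that of these markers was lower. Of 12 endothelial markers 1 rose, the junction gene Cdh5 (log2 0.97, edgeR adjusted p = 0.0327), and 0 fell, against the 0.909% of all genes that rose. Mural markers were above 0 in 7 of 8 genes in each genotype, against 39.1% of all genes in wild type and 42.1% in the knockout, and erythroid markers summed to 398, 509, 902 and 699 CPM. The part of these cells in the class I levels was not tested.

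**Figure D3:**
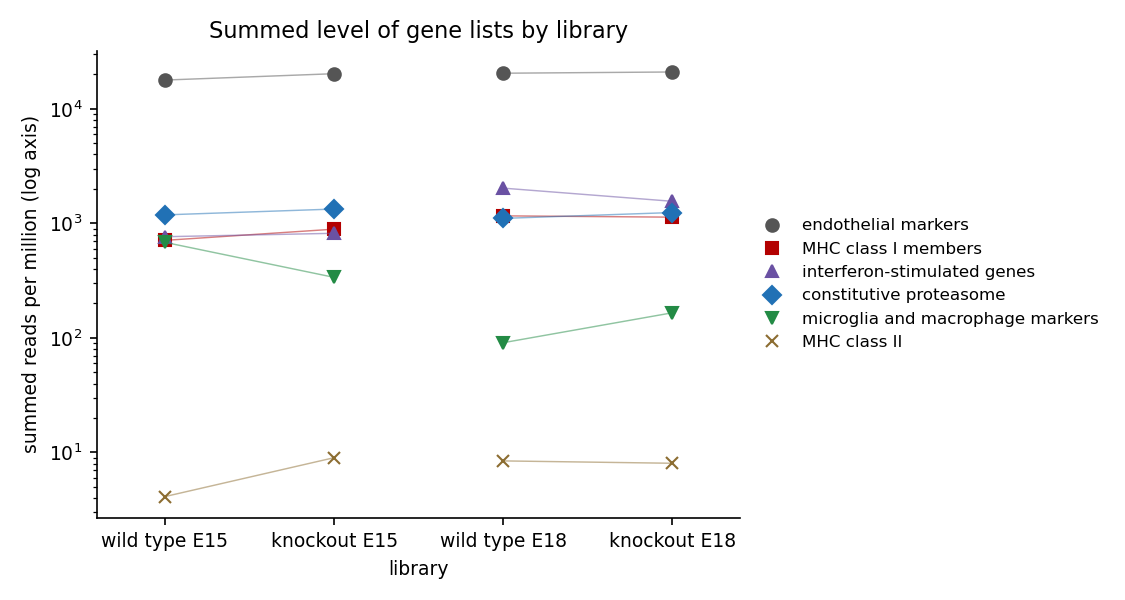
Summed CPM of 6 gene lists in each library, on a log axis, with a thin line joining the 2 genotypes of a stage. The 10 class I members go from 711 and 891 at E15 to 1165 and 1134 at E18, next to the interferon-stimulated genes, while microglia and macrophage markers go from 684 and 338 to 90.9 and 166.

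Between genotypes, 1 member, Nlrc5, passed 2-fold, at E18, and the other members that entered stayed under it at both stages. At E15, 4 of the 8 members that entered were above 0, with a median log2 ratio of knockout to wild type of 0.10 against -0.01 over all genes. None of the 8 was called in either direction, where 6.87% of all genes entered were. At E18, 4 of 9 were above 0, with a median of -0.06 against 0.00, and 1 of 9, Nlrc5, was called, where 6.80% of all genes entered were. Nlrc5 entered with exactly the 50 reads that the filter asks for, all in the knockout library, so it could enter only as a difference. The additive test of genotype called 0 of 8 members (edgeR adjusted p from 0.993 to 0.999, 0 at an unadjusted p under 0.05), and DESeq2 also called 0. Over all genes it called 0.0224%.

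Of the 3 heavy chains among the members, H2-K1 was below 0 on the log2 scale in the knockout at both stages beyond counting error. Its reads were 518 and 447 at E15 and 895 and 757 at E18, a knockout to wild-type ratio of 0.821 (0.722 to 0.934) and 0.734 (0.665 to 0.809). Its share of the reads of the 3 heavy chains was 15.5% and 10.7% at E15 and 15.3% and 12.1% at E18, lower in the knockout at each stage. The additive estimate was -0.36 with an edgeR adjusted p of 0.993, so it did not pass. H2-T22, a nonclassical heavy chain outside the members, chosen after its values were seen, was also below 0 beyond counting error at both stages, with log2 ratios of -0.25 at E15 and -0.24 at E18. The list it comes from did not lean that way. Of the other class I and class I-like heavy chains, 4 of 8 were above 0 at E15 and 5 of 9 at E18. All genes entered had 49.4% and 50.3% above 0, and the list's median was 0.04 at each stage. Fcgrt, the most abundant of that list, stood higher in the knockout at both stages (400, 438, 479 and 579 CPM). H2-D1 had 2522 and 3444 reads at E15, a ratio of 1.30 (1.23 to 1.37), and 3744 and 4319 at E18, a ratio of 1.00 (0.957 to 1.05). H2-T23 had ratios of 0.968 (0.822 to 1.14) and 0.832 (0.767 to 0.902). The 3 member chains stood on different sides of 1 at E15.

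B2m was higher in the knockout library at E15, with a ratio of 1.38 (1.33 to 1.43), and slightly lower at E18, with 0.957 (0.930 to 0.985). Tap1 stood at a ratio of 1.78 (1.32 to 2.42) at E15 on 70 and 131 reads, and at 1.03 (0.913 to 1.17) at E18. It was the largest ratio of the 8 members at E15 and stayed under 2-fold. Tapbp had ratios of 1.18 (1.12 to 1.24) and 1.05 (1.02 to 1.09), and Tap2 of 0.939 (0.830 to 1.06) and 0.932 (0.858 to 1.01), whose intervals include 1. Psmb9 had 0.786 (0.498 to 1.24) and 0.759 (0.573 to 1.00), with intervals that reach 1 at each stage. These intervals cover counting error and not the spread between embryos, which 1 library per group cannot give.

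**Figure D4:**
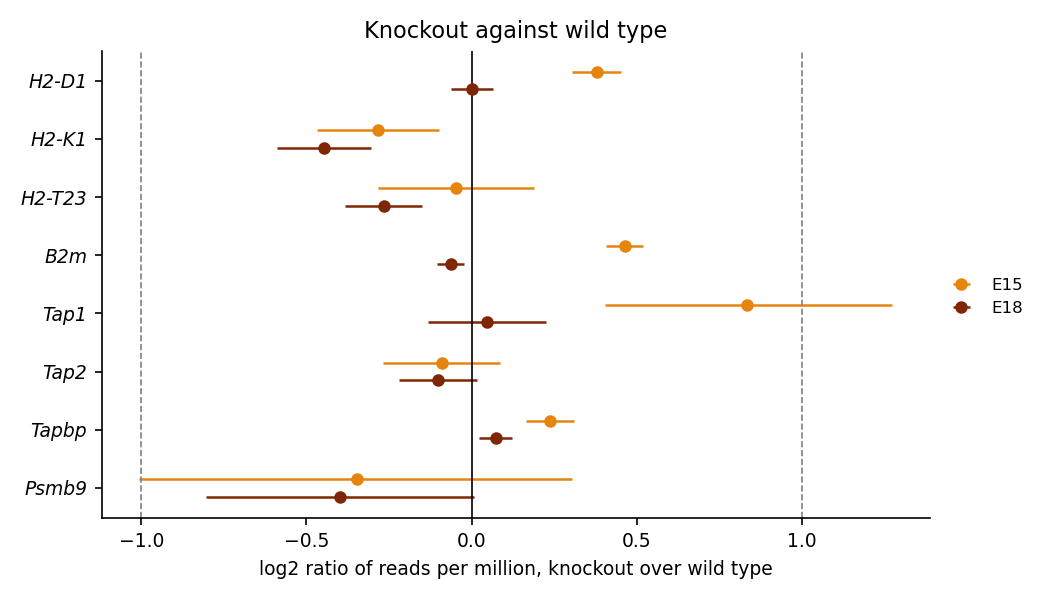
Log2 ratio of CPM, knockout over wild type, at E15 and E18 for the 8 members with enough reads; points are ratios without a pseudocount, lines are exact 95% intervals (counting error only) and dashed lines mark a 2-fold ratio. H2-K1 lies below 0 at both stages, B2m, H2-D1 and Tap1 lie above 0 at E15, and none of the 8 points passes a 2-fold line.

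Nlrc5 had reads in the knockout libraries alone. Against a floor of 3 reads in the wild-type library, the Nlrc5 ratio of knockout to wild type was 1.90 at E15 (6 reads). At E18 it was 14.5 (50 reads, 2.27 CPM with an interval of 1.69 to 3.00). These ratios leave out the counting error of the knockout reads. The exact intervals of the counts, which include it, had lower limits of log2 0.165 at E15 and 3.50 at E18. In the authors' deposited table, Nlrc5 is the 1 member marked as significant at each stage, with a fold of 11.4 at E15 and 86.7 at E18, computed against a small positive value in place of 0. Of the members that NLRC5 is known to act on, none was called 2-fold higher beside it. Over all genes entered, 448 of 12633 were 2-fold higher at E15 and 356 of 12349 at E18. A count of 0 among so few genes therefore does not set them apart from all genes. Whether the Nlrc5 reads bear on these genes was not tested. H2-D1, H2-K1, H2-T23, B2m, Tap1 and Psmb9 had ratios from 0.786 to 1.78 at E15, with Tap1, B2m and H2-D1 above 1, and from 0.734 to 1.03 at E18.

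At E18 the interferon-stimulated genes lay below 0 in the knockout in 24 of 27 cases, against 6142 of 12349 genes entered. Their median log2 ratio was -0.43, against 0.00 over all genes. Of the 27, 6 were 2-fold lower, among them Ifit1 (506 and 266 reads, log2 -1.07), where 3.92% of all genes entered were. At E15, 17 of 24 lay above 0, against 49.4% of all genes, with a median of 0.21. The medians of microglia and macrophage markers lay on the opposite side of 0, at -0.72 at E15 and 0.89 at E18. Those of other leukocyte markers were -0.53 and 1.40. Neither list was uniform at E15, where 2 of 15 and 2 of 7 markers lay above 0, against 49.4% of all genes. C1qc (196 and 449 reads), Cpa3 (11 and 114) and Ngp (1 and 83) were 2-fold higher there, while 5 and 2 markers of the 2 lists were 2-fold lower. Of all genes entered at E15, 448 of 12633 were 2-fold higher and 420 lower. The part of these cells in the class I ratios was not tested.

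The immunoproteasome share of the catalytic subunits differed by subunit, and was lowest for Psmb8 and highest for Psmb10. Per kilobase, Psmb9 made up 5.77%, 3.14%, 9.51% and 7.27% of the Psmb9 and Psmb6 pair. Psmb10, a subunit outside the members that replaces Psmb7, made up 25.7%, 34.4%, 38.8% and 30.99% of its pair. Psmb8 made up no more than 0.167% of the Psmb8 and Psmb5 pair in any library, with an upper limit of 0.519% in the wild-type library at E15 (exact binomial 95% interval). Over the 3 pairs the share was 14.1%, 17.2%, 22.7% and 16.9%, highest in the wild-type library at E18. The share for Psmb9 was lower in the knockout at each stage, though the intervals of the 2 genotypes overlapped at E15 (4.22% to 7.69% and 2.22% to 4.31%) and at E18 (7.83% to 11.4% and 5.91% to 8.86%). For Psmb10 the knockout was higher at E15 and lower at E18.

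**Figure D5:**
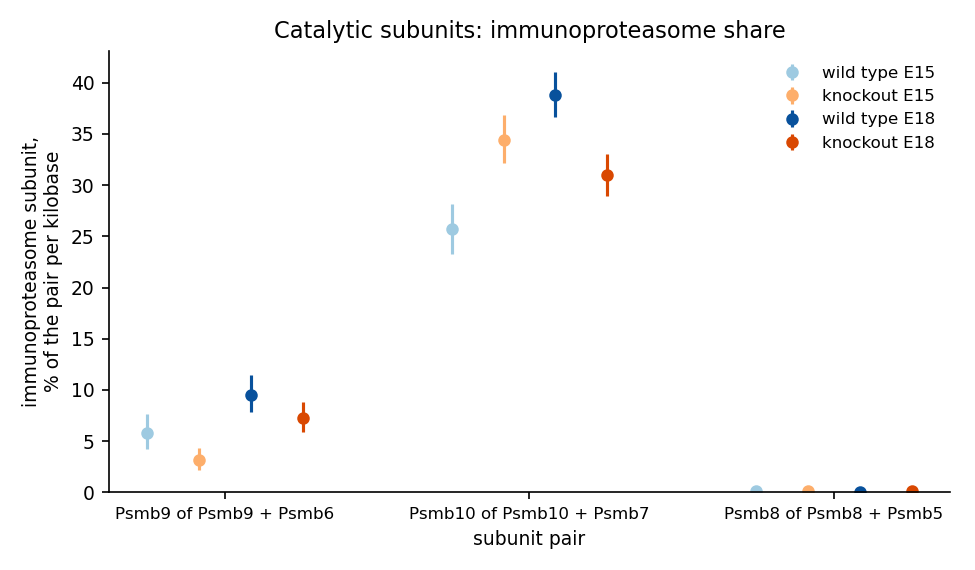
Share of the immunoproteasome subunit in each pair of catalytic subunits, in percent per kilobase, by library, with exact binomial 95% intervals as vertical lines (counting error only). The Psmb10 pair lies between 25.7% and 38.8%, the Psmb9 pair between 3.14% and 9.51%, and the Psmb8 pair near 0.

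Of 8548 genes outside the pathway members with a mean of at least 10 CPM, the 5 whose profile over the 4 libraries was nearest to the mean profile of the members were Serpinb9, Vamp2, Tom1l2, Sphk2 and Gpr155. The measure was the Euclidean distance between log2 levels centred on each gene's own mean, and it ran from 0.0731 to 0.104. Serpinb9, an inhibitor of granzyme B, had 989, 1091, 2010 and 2486 reads. The mean profile took in all 10 members, also Nlrc5 and Psmb8, which were near the limit of detection. At E18 its centred log2 level was 0.393 for the knockout library against 0.324 for wild type. Nlrc5 had the highest knockout to wild-type log2 ratio of the members there (1.71), while 5 of the 9 that entered lay below 0. A profile without Nlrc5 was not tested. With 4 libraries and a profile set mainly by stage, many genes lie close, so this ranking is a description only.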

How the data were processed

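RNA of brain endothelial cells was measured in 4 libraries, 1 per group. Per the file headers, the 2 tables deposited by the authors give raw read counts by Ensembl gene, together with the authors' CPM and their fold, the ratio of knockout to wild-type CPM. Per the submitters' processing notes, the tools were TopHat2 2.0.12, Bowtie2 2.2.3 and HTSeq 0.6.0 and the build was mm9, with no role stated. Of 20143 gene identifiers also in GENCODE M21 (GRCm38), 18140 (90.1%) carried the same start and end there as in the tables, and coordinates were therefore read as GRCm38. Deposited counts were scaled to library totals as CPM. Log2 ratios used a pseudocount of 1 CPM. A gene needed 1 CPM or more in either library of a pair and 50 reads or more over the pair, and stage comparisons took genes listed in both tables. The 95% intervals of count ratios, without the pseudocount, are exact (Clopper-Pearson). Intervals and the floor of 3 reads cover counting error only. The additive test was edgeR 4.0.16 (glmQLFit, glmQLFTest, TMM, Benjamini-Hochberg over all genes tested) in R 4.3.3, on genes reaching 1 CPM in 2 or more libraries. DESeq2 1.42.0, other scalings, pseudocounts, filters and a 1.5-fold threshold were alternatives. Scripts were tested on simulated data. Exon lengths and shared bases came from GENCODE M21, and promoter windows from RefSeq. All 10 members are named. Of other lists the rule allows the 4 genes of highest mean CPM and genes past 2-fold in a comparison described. Irf9 and H2-T22, outside this rule, were chosen after their values were seen, and Ucp2, Ddx3y and Xist check the labels. The members and lists were chosen with earlier results of these data known.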

Additional observations from a re-analysis of the deposited data

Results flagged for a closer look

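B2m lay above 0 in the knockout at E15 (log2 ratio 0.462) and below 0 at E18 (log2 ratio -0.0630), with both counting intervals apart from 0 on opposite sides. It was picked out because the libraries of the 2 stages moved in opposite directions. The difference between the stages was not tested, since each group held 1 library.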

How the results depend on the processing

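No member reversed its direction among the called values under the alternatives run. At a 1.5-fold threshold the members called higher were 1 of 8 (genotype, E15), 6 of 8 (stage, wild type) and 5 of 9 (stage, knockout), and 0 were called lower. Of all genes entered, 18.8%, 26.4% and 32.1% passed that threshold in either direction. The genotype count at E18 was 0 with a pseudocount of 5 CPM, and 0 without Nlrc5, Psmb8 and Psmb9, an alternative chosen after seeing the data. Without the 3 H2 genes the wild-type stage count was 1. The median log2 ratio of members went from 0.71 to 0.44 (stage, knockout) with a pseudocount of 5 CPM. For genotype it went from 0.10 to 0.24 at E15 and from -0.06 to -0.01 at E18 without the H2 genes, and to 0.15 and -0.03 with no filter. The additive stage test called 5 members with DESeq2, 5 with a filter of 5 CPM and 1 with no filter, and 59 genes in all rose with no filter, 507 with the 5 CPM filter and 356 with DESeq2, against 122. Fell were 33, 490 and 360, against 58. For genotype, the calls over all genes were 0 with no filter, 24 higher and 5 lower with the 5 CPM filter, and 35 higher and 9 lower with DESeq2, against 3. The immunoproteasome share by reads without length was 12.2%, 15.1%, 20.02% and 15.01%. The summed level of members was 681, 857, 1214 and 1181 with TMM, 436, 511, 694 and 684 without B2m, and 497, 634, 857 and 850 without the H2 genes. TMM set the log2 ratio of H2-D1 between stages at 0.39 in wild type and 0.01 in the knockout. Where a count moved the cause was not tested. Leaving out a library was not possible, because 1 library per group leaves no comparison and no residual degree of freedom. No paired analysis was possible because each group held 1 library, so no replicate number could serve as a block, although the additive test does compare the stages within each genotype. Depth limits Psmb8, Nlrc5 and Psmb9 most, with at most 3, 50 and 112 reads.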
